A study of Homo sapiens with 26 samples.

Results

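Glycolysis turns glucose into pyruvate in the cytosol, and the genes of its carriers, enzymes and branch points were described here together with genes that cells switch on when oxygen is short. The set was a list of 38 gene symbols, matched by symbol to every deposited table. All 38 stand among the 64235 entries of the recovery experiment, and 37 of them among the 16430 genes of the drug experiment. EGLN3, one of the oxygen-sensing prolyl hydroxylases, is not among those 16430 and was listed at 0 FPKM in 7 of the 8 recovery libraries and at 0.013 FPKM in the other one.

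All libraries came from MV4-11, a cell line long grown from a human acute myeloid leukaemia, whose FLT3 receptor carries an activating mutation. In the drug experiment, 3 libraries each came from cells kept 48 h in DMSO, in 100 nM dexamethasone (a synthetic glucocorticoid), in 10 nM quizartinib (a FLT3 kinase inhibitor) or in the combination of both drugs, and from cells kept 5 days in quizartinib or in quizartinib with dexamethasone added on day 3. In the recovery experiment, 2 libraries each came from untreated cells, from survivors of a 48 h exposure to 100 nM quizartinib, and from such survivors after 13 or 30 days without drug. All groups share the line, there is no DMSO group at 5 days, and since separate cultures are not stated for the replicates, each p measures the spread between these libraries, which may be technical.

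Glucose enters cells through facilitative carriers, is phosphorylated by hexokinase, split by aldolase and oxidised to pyruvate, which lactate dehydrogenase can reduce to lactate for export. Under low oxygen the prolyl hydroxylases of the EGLN family no longer mark HIF1A protein for destruction, and the stabilised factor binds DNA at short core motifs and raises transcription of glycolytic enzymes and of stress genes such as BNIP3 and VEGFA. The control of HIF1A acts mostly on its protein, which RNA sequencing does not measure.

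The promoters of 4 members are shown because the results below turn on these genes: LDHA, which had one of the largest falls with quizartinib, its sister LDHB, which answered to dexamethasone, and ALDOC and MIR210HG, which varied widely between libraries of one group. Each line gives the 250 bases before a RefSeq start (GRCh38.p14), 5′ to 3′ on the gene's strand, with matches to the HIF core motifs ACGTG and GCGTG, on either strand, in capitals. The windows lie at chr11:18394313-18394562 on the plus strand for LDHA, and on the minus strand at chr12:21657843-21658092 for LDHB, at chr17:28576896-28577145 for ALDOC and at chr11:568458-568707 for MIR210HG. LDHA has 2 windows, and the one printed was chosen by its match count, while LDHB, ALDOC and MIR210HG have 1 each. The gene positions given below come from another annotation. By those positions the LDHA window lies partly inside its gene, and those of LDHB and ALDOC wholly inside.
LDHA: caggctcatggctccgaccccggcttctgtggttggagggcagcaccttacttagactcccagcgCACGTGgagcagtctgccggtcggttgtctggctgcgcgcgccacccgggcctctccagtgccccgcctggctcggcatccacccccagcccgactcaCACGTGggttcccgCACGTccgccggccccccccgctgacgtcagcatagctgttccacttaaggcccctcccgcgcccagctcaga
LDHB: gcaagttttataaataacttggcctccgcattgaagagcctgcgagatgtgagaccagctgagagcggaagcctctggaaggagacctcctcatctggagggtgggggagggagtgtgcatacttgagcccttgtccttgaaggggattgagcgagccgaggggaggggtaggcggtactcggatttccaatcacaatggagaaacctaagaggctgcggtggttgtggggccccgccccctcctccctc
ALDOC: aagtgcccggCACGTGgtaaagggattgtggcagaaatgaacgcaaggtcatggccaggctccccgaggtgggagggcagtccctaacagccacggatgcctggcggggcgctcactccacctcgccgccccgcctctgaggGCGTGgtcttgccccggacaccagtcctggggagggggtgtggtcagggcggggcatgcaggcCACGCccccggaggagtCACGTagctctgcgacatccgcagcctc
MIR210HG: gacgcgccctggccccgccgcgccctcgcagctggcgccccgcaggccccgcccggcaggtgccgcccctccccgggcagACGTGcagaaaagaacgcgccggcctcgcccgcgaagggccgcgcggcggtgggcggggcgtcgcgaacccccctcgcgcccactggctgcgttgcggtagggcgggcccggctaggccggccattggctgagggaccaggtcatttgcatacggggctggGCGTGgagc
With overlapping matches on the 2 strands counted apart, as in CACGTG, the LDHA window holds 5 matches, that of ALDOC 5, that of MIR210HG 2 and that of LDHB 0. RefSeq windows were found for 33 of the 38 genes, 64 windows in all, since several genes have more than one start and their windows can overlap. At least 1 match stands in 39 of the 64 (60.9%) and in 15172 of all 35116 human windows (43.2%). At least 3 matches stand in 11 of the 64 (17.2%) and in 7.8% of all windows. A match is a description of letters, and no binding was measured.

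MIR210HG is the host transcript of miR-210, a microRNA known to rise in hypoxic cells. The mature RefSeq sequence of miR-210-3p (GRCh38.p14, chr11:568112-568133, minus strand) is shown with its seed, bases 2 to 8, in capitals, to identify that host.
hsa-miR-210-3p: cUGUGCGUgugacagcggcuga
The microRNA itself was not measured in these libraries, so every value below for this locus is the host RNA.

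Levels in the drug experiment are CPM, counts scaled by TMM to a common library size, and those of the recovery experiment are FPKM. Library totals of the drug experiment ran from 14795190 to 24990476 counts, while the depth behind an FPKM is unknown. The 7SK and 7SL RNAs took from 9.736% of counts in dexamethasone libraries to 31.622% in a combination library at 48 h, and removing them left every count of called members the same. Of 14 myeloid markers 13 are listed in the drug tables, with sums of 2298 to 3781 CPM. Of 5 T and NK cell markers only NKG7 is listed there, at 18.2 to 21.5 CPM with dexamethasone alone and 11.2 to 17.7 CPM in the other groups. In the recovery libraries NKG7 stood at 22.96 to 115 FPKM, and CD3D, CD3E, CD3G and GNLY stayed under 1 FPKM. Of 5 B cell markers 4 are listed in the drug tables (sums of 2.28 to 4.48 CPM), of 6 fibroblast and epithelial ones 3 (8.02 to 21.99 CPM, highest in the dexamethasone and combination groups at 48 h), and of 5 erythroid and megakaryocyte ones 0. The part of these markers in the results was not tested. Since these are bulk samples, fewer cells that express a gene and less RNA per cell cannot be told apart. GAPDH has 62 named pseudogenes in GENCODE 29, BNIP3 39, PGAM1 13 and LDHA 6, and how reads shared with them were counted is not stated, so their levels are uncertain.

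The 48 h libraries numbered 3 stood apart and are shown separately. Differences of library 3 are on the log2(CPM + 0.5) scale, with CPM here taken from library totals, without TMM. In DMSO, 9 of the 10 hypoxia response targets (BNIP3, BNIP3L, VEGFA, ADM, ANKRD37, NDRG1, MIR210HG, AK4, P4HA1 and KDM3A) were more than 1 log2 unit higher in library 3 than the mean of libraries 1 and 2, with a median difference of 1.67, against 2.14% of all genes. The same held for 9 of 10 in dexamethasone, with a median of 2.00, against 3.1% of all genes. With quizartinib at 48 h it held for 0 of 10 (median 0.12), with the combination at 48 h for 1 of 10 (median 0.01), and in each 5 day group for 0 of 10. Over all genes the median difference at 48 h was -0.079 in DMSO, -0.067 in dexamethasone, -0.133 with quizartinib and -0.148 with the combination. These differences rest on single libraries and have no test.

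MIR210HG (chr11:565660-568457, minus strand) was read at 0.228, 1.95 and 15.1 CPM in DMSO and at 2.14, 2.59 and 21.96 CPM in dexamethasone, while the 12 quizartinib libraries stayed between 0.208 and 0.764 CPM. ALDOC (chr17:28573115-28577264, minus strand), the aldolase best known from brain, stood at 8.68, 23.6 and 129 CPM in DMSO and at 25.1, 36.3 and 181 CPM in dexamethasone. AK4, a mitochondrial adenylate kinase, stood at 2.15, 4.77 and 32.6 CPM in DMSO and at 5.77, 8.25 and 47.8 CPM in dexamethasone. In each of these genes library 3 was the highest of its group, and libraries 1 and 2 of DMSO also differed from each other. NDRG1, a stress-induced gene of differentiation, stood at 57.9, 49.3 and 279 CPM in DMSO. SLC2A3, a high-affinity glucose carrier, stood at 7.17, 15.2 and 43.4 CPM in DMSO and at 13.2, 20.4 and 128 CPM in dexamethasone. Most glycolytic enzymes moved less. In DMSO the median difference of library 3 was 0.30 for the 9 upper enzymes and 0.49 for the 6 lower ones, beside -0.079 over all genes. Above 0 there were 7 of 9 upper and 6 of 6 lower enzymes, and 39.8% of all genes. The medians in dexamethasone were 0.46 for the upper and 0.73 for the lower enzymes, beside -0.067 over all genes.

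Immediate early genes were also high in the libraries numbered 3, in all 4 groups at 48 h. FOS stood at 49.9, 50.3 and 926 CPM in DMSO and at 78.0, 79.5 and 1139 CPM with quizartinib, and DUSP1 at 1.87, 1.73 and 197 CPM in DMSO and at 12.1, 14.5 and 183 CPM with quizartinib. With quizartinib and without TMM, 8 of the 10 hypoxia targets were above the mean of libraries 1 and 2 in library 3, each by less than 1 log2 unit. On that scale 28.7% of all genes were above it. BNIP3L (-0.024) and AK4 (-0.066) lay below it on that scale, but above it in TMM-scaled CPM. MIR210HG was 0.462, 0.307 and 0.546 CPM with quizartinib. What the libraries numbered 3 share is not given in the labels, and its part in the results was not tested, so the main comparisons are given with these 4 libraries and without them.

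**Figure D1:**
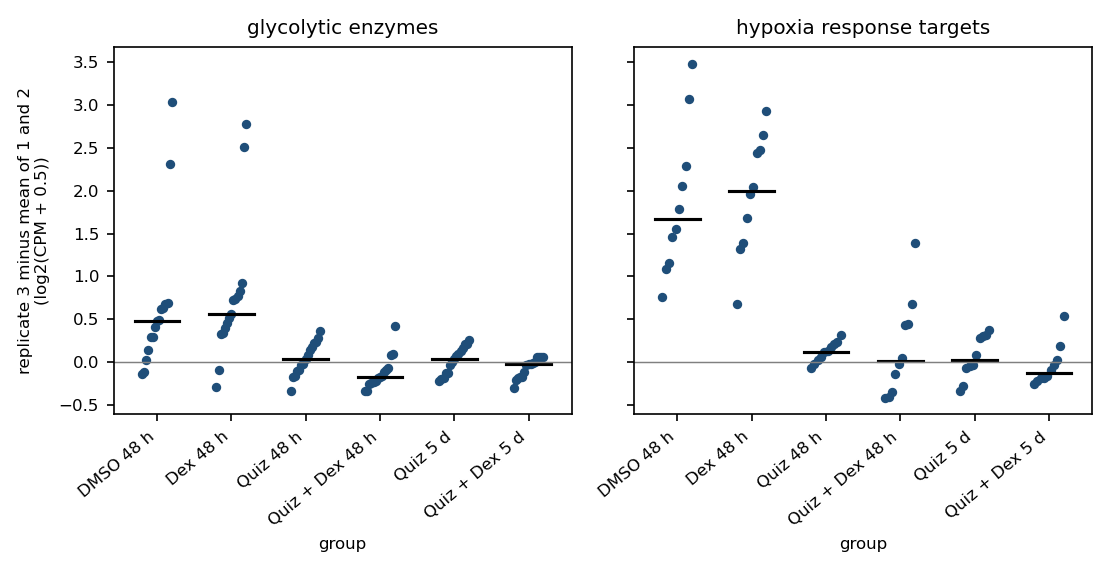
Difference between replicate 3 and the mean of replicates 1 and 2, on the log2(CPM + 0.5) scale, for the 15 enzymes of upper and lower glycolysis (left) and the 10 hypoxia response targets (right) in the 6 drug groups. CPM are taken here from library totals, without TMM. Each point is a gene and the bar is the median. The targets sit at medians of 1.67 in DMSO and 2.00 in dexamethasone, and near 0 in the 4 groups with quizartinib. Over all genes the group medians ran from -0.148 to 0.03.

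Quizartinib for 48 h lowered most of the set. Of 37 members, 26 were called lower and 1 higher by edgeR's quasi-likelihood test (adjusted p under 0.05), where 30.4% of all 16430 genes were called lower and 29.0% higher. The median log2 fold change of the 37 members was -1.19, beside 0.02 over all genes. The lower calls took in 9 of 9 upper glycolytic enzymes, 6 of 6 lower ones, 3 of 4 carriers, 3 of 4 genes of the lactate and pyruvate branch and 5 of 10 hypoxia targets. The 17 glycolytic enzymes and lactate dehydrogenases together held 0.977% to 1.35% of the counts of a DMSO library and 0.460% to 0.486% of a quizartinib library.

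Among the carriers, SLC16A1 (MCT1), which moves lactate and pyruvate across the membrane, stood at 82.6, 82.5 and 69.1 CPM in DMSO and at 22.8, 23.8 and 33.2 CPM with quizartinib. It fell by 1.55 ± 0.13 on the log2 scale (SE, n = 3 per group, adjusted p from edgeR's model = 2.83e-08), and the groups did not overlap. SLC2A1 (GLUT1), the widespread glucose carrier, stood at 99.1, 82.6 and 105 CPM against 44.1, 44.1 and 68.8 CPM, a log2 change of -0.87 ± 0.18 (adjusted p from edgeR's model = 0.000558). SLC2A3 was 3.39, 3.48 and 4.68 CPM with quizartinib, below every DMSO library, and its log2 change of -2.50 ± 0.71 became -1.71 ± 0.29 without the libraries numbered 3. SLC16A3 (MCT4), the exporter of lactate in strongly glycolytic cells, did not pass the test (-0.47 ± 0.22, adjusted p from edgeR's model = 0.0723), but was called lower with the replicate number as a block (-0.43 ± 0.15, adjusted p from edgeR's model = 0.0243). The difference between the 2 lactate carriers was not tested.

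In upper glycolysis, HK2, the hexokinase that many tumours raise, stood at 111, 115 and 192 CPM in DMSO and at 52.9, 53.8 and 76.3 CPM with quizartinib, and HK1, the constitutive form, at 72.8, 69.3 and 76.3 CPM against 53.3, 54.5 and 56.2 CPM. HK2 changed by -1.19 ± 0.20 and HK1 by -0.41 ± 0.10, both called by edgeR. PFKP, the platelet form of phosphofructokinase, which commits the sugar to glycolysis, stood at 131, 130.1 and 152 CPM against 54.1, 53.2 and 55.5 CPM (-1.34 ± 0.11, adjusted p from edgeR's model = 1.4e-08). The groups of HK1, HK2 and PFKP did not overlap. TPI1, which interconverts the triose phosphates, stood at 509, 485 and 646 CPM against 197, 192 and 239 CPM and changed by -1.39 ± 0.13. GPI, the glucose-6-phosphate isomerase, changed by -1.35 ± 0.21, and ALDOA, the main aldolase, by -1.27 ± 0.20. ALDOC stood at 8.78, 11.2 and 13.5 CPM with quizartinib, overlapping DMSO library 1, and was called lower with all libraries (-2.27 ± 0.75) and not called without the libraries numbered 3 (-0.71 ± 0.31, adjusted p from edgeR's model = 0.06).

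In lower glycolysis, PGK1 (chrX:77910739-78129296, plus strand), which makes ATP from 1,3-bisphosphoglycerate, stood at 456, 463 and 756 CPM in DMSO and at 179.6, 177 and 223 CPM with quizartinib. PGAM1, phosphoglycerate mutase, stood at 467, 462 and 686 CPM against 148, 140.4 and 188 CPM, and ENO1, the main enolase, at 1721, 1496 and 2263 CPM against 518, 523 and 674 CPM. Every quizartinib library of these genes was below every DMSO library. Their log2 changes were -1.53 ± 0.22 for PGK1, -1.76 ± 0.17 for PGAM1 and -1.68 ± 0.19 for ENO1, and all were called by edgeR. PKM, pyruvate kinase, stood at 579, 524 and 819 CPM against 214, 194 and 221 CPM (-1.61 ± 0.18). ENO2, the enolase of neurons, stood at 2.51, 2.95 and 16.3 CPM against 1.08, 1.33 and 1.14 CPM, and its change of -2.62 ± 0.81 became -1.19 ± 0.36 without the libraries numbered 3. Neither gene overlapped between the groups. GAPDH, often used as a reference gene, changed by -0.79 ± 0.13, from 2970, 2714 and 3692 CPM to 1738, 1714 and 1967 CPM. A gene used to scale other measurements thus differed between these groups beyond their spread (adjusted p from edgeR's model = 4.41e-05).

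At the end of the pathway, LDHA (chr11:18394388-18408425, plus strand), whose enzyme favours the making of lactate and whose promoter is printed above, stood at 667, 693 and 1209 CPM in DMSO and at 142, 134 and 197 CPM with quizartinib. The lowest DMSO library was more than 3 times the highest quizartinib library, and the log2 change was -2.44 ± 0.24 (5.42-fold lower, adjusted p from edgeR's model = 1.29e-07), or -2.31 ± 0.08 without the libraries numbered 3. LDHB (chr12:21635342-21757857, minus strand), whose enzyme favours the use of lactate, changed by -0.91 ± 0.09, from 439, 461 and 407 CPM to 222, 221 and 251 CPM. Of the kinases that switch off pyruvate dehydrogenase, PDK3 was called lower (-0.90 ± 0.23), and PDK1, a HIF target, was not called (0.01 ± 0.36): its values were 43.2, 54.9 and 109 CPM in DMSO and 55.4, 57.3 and 95.7 CPM with quizartinib.

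The member called higher was PFKFB3 (chr10:6144934-6254644, plus strand), which makes fructose 2,6-bisphosphate, the strongest activator of phosphofructokinase. It stood at 12.2, 13.9 and 14.9 CPM in DMSO and at 19.7, 18.5 and 20.3 CPM with quizartinib, without overlap (0.51 ± 0.20, adjusted p from edgeR's model = 0.0335). That call was lost without DMSO library 1 (0.44) or 2 (0.52) and without quizartinib library 1 (0.50) or 3 (0.48), and it held without all libraries numbered 3 (0.54 ± 0.12, adjusted p from edgeR's model = 0.000827). PFKFB4, its relative, stood at 7.08, 14.4 and 74.0 CPM in DMSO and at 16.5, 15.5 and 13.9 CPM with quizartinib, so its change turned from -1.06 ± 0.68, not called, to 0.57 ± 0.22, called, once the libraries numbered 3 were left out.

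The oxygen-sensing genes were not called. HIF1A, the oxygen-regulated subunit of the hypoxia factor, stood at 39.9, 51.5 and 55.9 CPM in DMSO and at 38.1, 39.9 and 51.6 CPM with quizartinib (-0.18 ± 0.13), and EGLN1, the main prolyl hydroxylase, at 38.7, 36.7 and 70.8 CPM against 42.0, 39.3 and 51.9 CPM (-0.14 ± 0.22, and 0.10 ± 0.08 without the libraries numbered 3). In both genes the groups overlapped. HIF1A passed the test, as lower, without DMSO library 1 (-0.31) or without quizartinib library 3 (-0.34).

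The hypoxia targets split. MIR210HG (-3.70 ± 1.13), AK4 (-2.75 ± 0.85), ANKRD37 (-2.42 ± 0.80), BNIP3 (-1.47 ± 0.54) and P4HA1 (-1.23 ± 0.45) were called lower by edgeR, with standard errors of 0.45 or more. With quizartinib AK4 stood at 1.69, 2.15 and 2.00 CPM. ANKRD37, a small ankyrin repeat gene, stood at 0.685, 0.908 and 3.45 CPM in DMSO and at 0.205, 0.307 and 0.409 CPM with quizartinib. BNIP3, the relative of BNIP3L, stood at 11.3, 17.8 and 64.0 CPM against 12.1, 9.52 and 12.1 CPM, and P4HA1, a subunit of collagen prolyl 4-hydroxylase, at 43.8, 61.9 and 191 CPM against 41.5, 38.9 and 46.3 CPM. ANKRD37 did not overlap between the groups, while AK4, BNIP3, MIR210HG and P4HA1 did, through DMSO library 1. Without DMSO library 3 alone these 5 calls were lost, as were those of ENO2, SLC2A3 and ALDOC, and 18 members were called lower and 3 higher (29.7% and 28.4% of all genes). BNIP3L, a mitochondrial receptor for mitophagy, stood at 35.2, 51.1 and 124 CPM in DMSO and at 87.5, 77.3 and 89.7 CPM with quizartinib. KDM3A, a histone H3 lysine 9 demethylase, stood at 91.7, 96.0 and 168 CPM against 126, 131 and 155 CPM, and NDRG1 at 89.0, 87.2 and 122 CPM with quizartinib. For these genes the quizartinib libraries lie between DMSO libraries 1 and 2 on one side and library 3 on the other, and with all libraries none was called (BNIP3L 0.27 ± 0.37, KDM3A 0.21 ± 0.20, NDRG1 -0.38 ± 0.61).

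Without the 48 h libraries numbered 3, 36 members were tested, 23 were called lower and 5 higher, where 32.4% of all genes were called lower and 30.6% higher. The higher calls were BNIP3L (0.92 ± 0.13), NDRG1 (0.71 ± 0.17), PFKFB4, PFKFB3 and KDM3A (0.44 ± 0.07). Among the hypoxia targets, AK4 (-0.86 ± 0.34), ANKRD37 (-1.62 ± 0.52) and P4HA1 (-0.41 ± 0.14) were still called lower, while BNIP3 (-0.44 ± 0.19) and MIR210HG (-1.50 ± 0.67) were not. Every upper glycolytic enzyme other than ALDOC, and all 6 lower ones, were called lower in both fits. ADM, the vasodilator peptide adrenomedullin, dropped out of that fit: its libraries held between 1 and 68 counts.

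**Figure D2:**
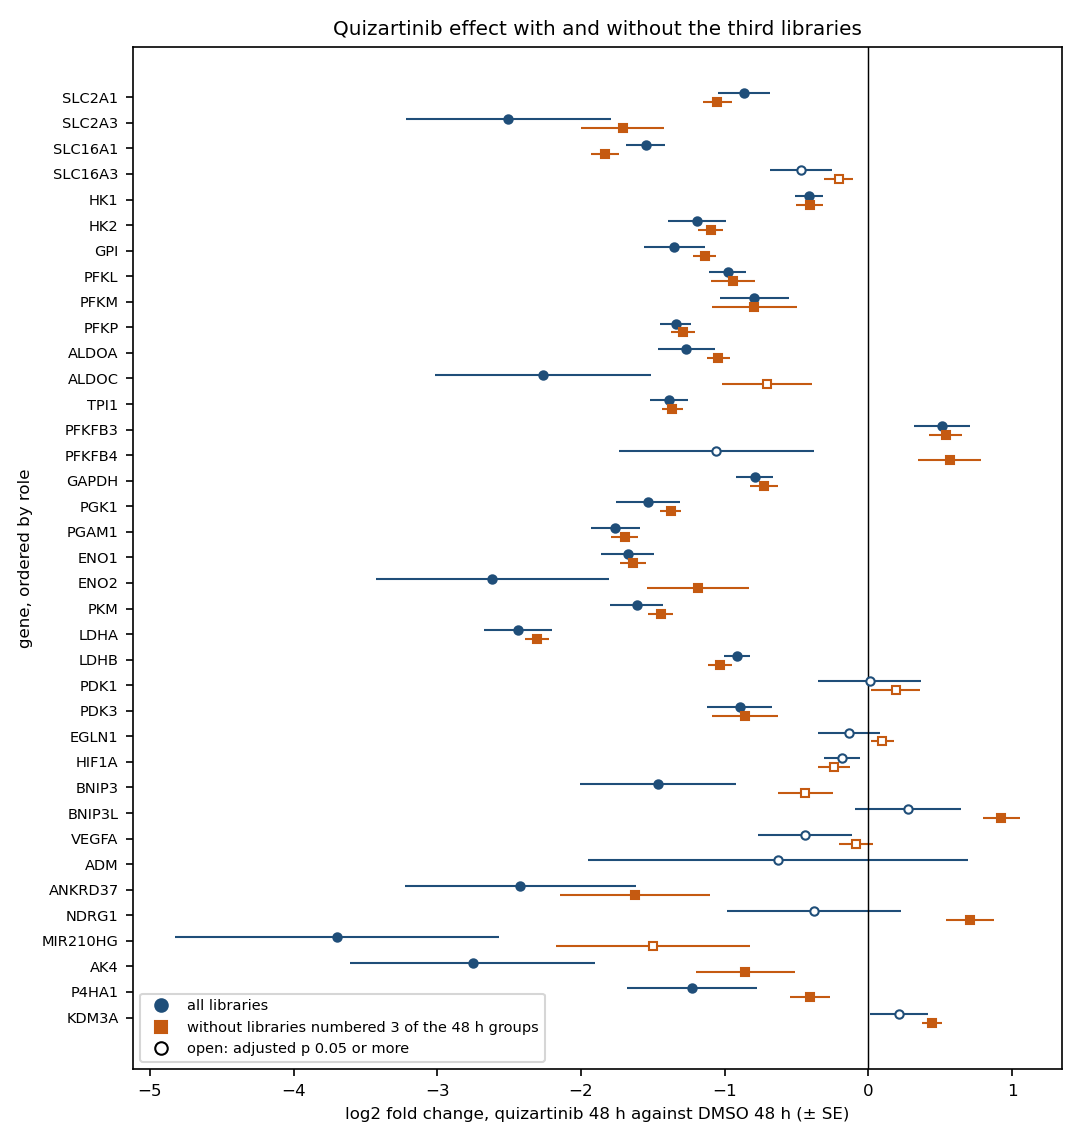
Log2 fold change of each member between quizartinib and DMSO at 48 h, with its standard error (horizontal axis), with all libraries (circles) and without the 48 h libraries numbered 3 (squares); filled marks have an adjusted p under 0.05. LDHA stays near -2.4, while NDRG1, PFKFB4 and EGLN1 lie on opposite sides of 0 in the 2 fits.

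Other genes of the pathway, from lists chosen with earlier results of these data known, gave a mixed picture in the same comparison. Of 21 other glycolysis and pyruvate genes tested, 4 were called higher and 11 lower, with a median of -0.40. PDK4, a pyruvate dehydrogenase kinase of the fasting response, rose from 0.091, 0.045 and 0.175 CPM to 1.23, 0.819 and 1.32 CPM (3.35 ± 0.52), and PFKFB2, a relative of PFKFB3, from 9.27, 9.95 and 6.55 CPM to 29.1, 30.1 and 27.6 CPM (1.75 ± 0.19). SLC2A4, the insulin-responsive glucose carrier, fell by 3.10 ± 0.39 on the log2 scale from 1.83, 1.68 and 2.14 CPM to 0.205, 0.256 and 0.182 CPM, and PDP2, a pyruvate dehydrogenase phosphatase, by 1.48 ± 0.12. The pyruvate dehydrogenase subunits also fell, PDHA1 by 1.05 ± 0.07 and DLAT by 1.26 ± 0.07 on the log2 scale. Of 29 other oxygen and hypoxia genes, 5 were called higher and 7 lower (median -0.21), GBE1, the glycogen branching enzyme (-2.06 ± 0.44), and ERO1A, an oxidase of the endoplasmic reticulum (-1.85 ± 0.22), among the lower ones. Of 7 genes of the pentose phosphate pathway, 0 were called higher and 3 lower (median -0.20). MYC, a regulator of many glycolytic genes, stood at 437, 395 and 609 CPM in DMSO and at 301, 304 and 377 CPM with quizartinib (-0.55 ± 0.15), and its part in these changes was not tested.

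**Figure D3:**
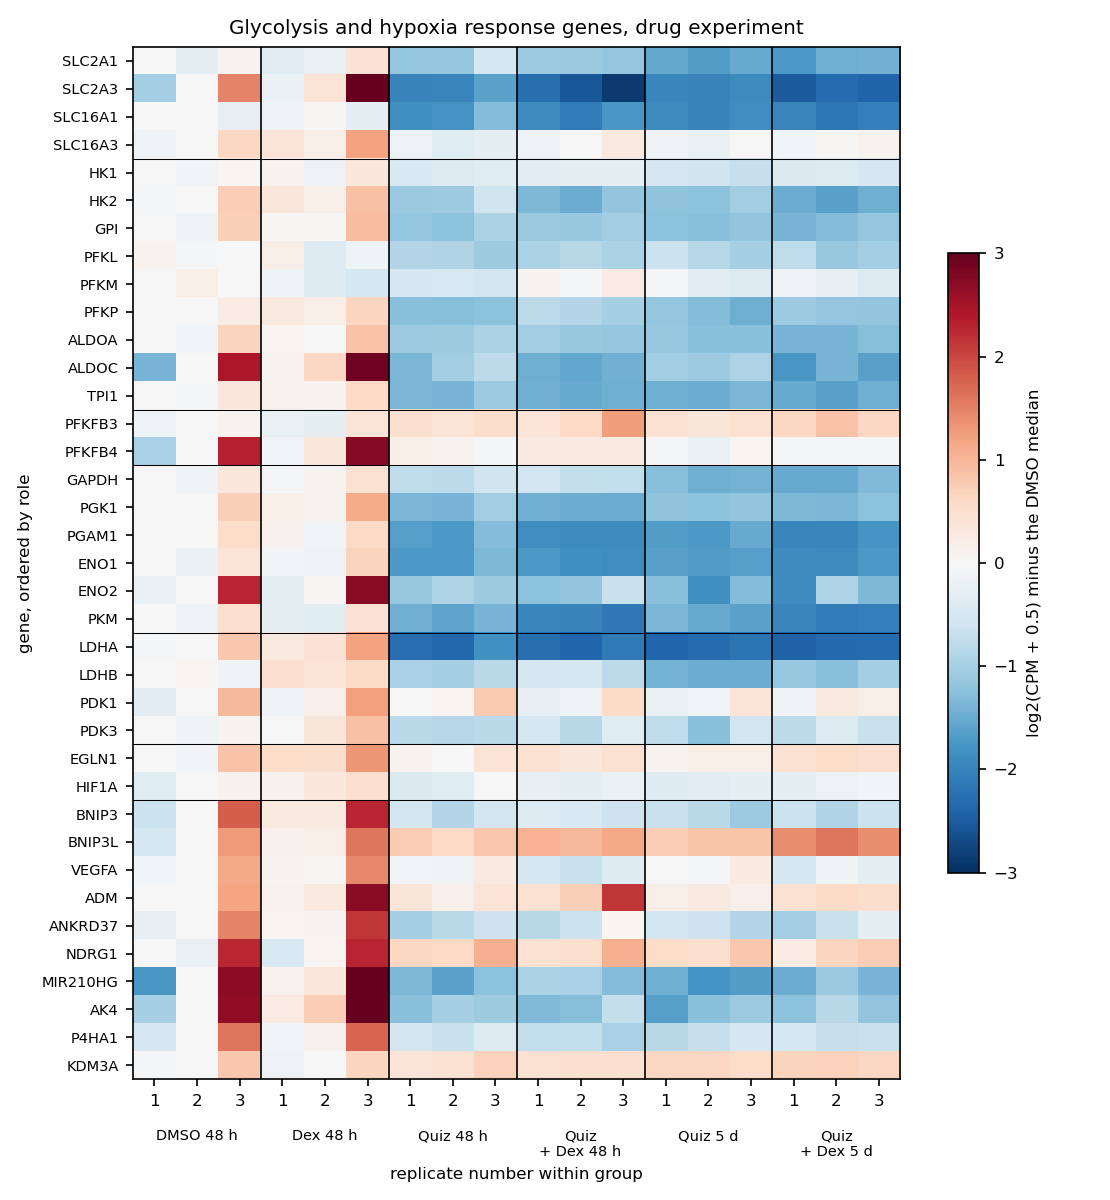
Level of the 37 members in the 18 drug libraries, as log2(CPM + 0.5) minus the median of the 3 DMSO libraries, with genes ordered by role from carriers (top) to hypoxia targets (bottom). The rows of upper and lower glycolysis are below 0 in all 12 quizartinib libraries except for PFKM, while PFKFB3, drawn between them, is above 0 in all 12. The DMSO and dexamethasone columns numbered 3 are raised over most of the hypoxia targets.

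Dexamethasone alone for 48 h raised 2 members and lowered 0 by edgeR, where 5.50% of all genes were called higher and 6.63% lower, and the median over the members was 0.22 beside -0.02 over all genes. LDHB stood at 439, 461 and 407 CPM in DMSO and at 627, 579 and 649 CPM in dexamethasone, without overlap (0.51 ± 0.09, adjusted p from edgeR's model = 0.000954). HIF1A stood at 56.6, 64.7 and 72.7 CPM in dexamethasone, above each DMSO library (0.40 ± 0.13, adjusted p from edgeR's model = 0.0472), but its call was lost without DMSO library 1 (0.27) or 2 (0.43) and without dexamethasone library 2 (0.40) or 3 (0.30). Same-numbered libraries of these groups deviated together, and with the replicate number as a block 4 members were called higher and 0 lower (6.85% and 8.23% of all genes): LDHB (0.50 ± 0.09), HIF1A (0.40 ± 0.09), EGLN1 (0.53 ± 0.16, adjusted p from edgeR's model = 0.0365) and PFKP (0.32 ± 0.10, adjusted p from edgeR's model = 0.0497).

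Without the libraries numbered 3, 11 members were called higher with dexamethasone and 0 lower (7.21% and 6.76% of all genes), and without DMSO library 3 alone, 13 were called higher and 0 lower (6.05% and 6.64% of all genes). The 11 were EGLN1 (0.60 ± 0.08), LDHA (0.43 ± 0.08), LDHB (0.45 ± 0.08), HIF1A (0.43 ± 0.11), the carrier SLC16A3 (0.39 ± 0.10), the enzymes HK2 (0.31 ± 0.09), PFKP (0.28 ± 0.08) and ALDOC (0.94 ± 0.29), and the targets BNIP3 (0.60 ± 0.18), BNIP3L (0.43 ± 0.13) and AK4 (1.03 ± 0.30). None was a lower glycolytic enzyme or a PFKFB gene. EGLN1 stood at 38.7, 36.7 and 70.8 CPM in DMSO and at 56.6, 56.2 and 96.9 CPM in dexamethasone, higher than DMSO at each of the 3 numbers. The groups overlap only through library 3 of DMSO. With all libraries and no block it was not called (0.52 ± 0.22, adjusted p from edgeR's model = 0.142). LDHA stood at 856, 943 and 1597 CPM in dexamethasone, also higher at each number (0.40 ± 0.22 with all libraries, not called, and 0.40 ± 0.14, not called, with the block). MIR210HG was not called with dexamethasone in either fit, but it was called higher without DMSO library 3 alone (3.02), and its change turned to the opposite sign (-1.29) without dexamethasone library 3 alone.

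With the combination for 48 h, 25 members were called lower and 1 higher against DMSO (31.8% and 31.3% of all genes), with a median of -1.09. The carrier SLC2A3 stood at 2.76, 2.20 and 1.63 CPM and changed by -3.30 ± 0.76, LDHA stood at 143, 134 and 159.9 CPM (-2.56 ± 0.24), PKM at 149.96, 145 and 131 CPM (-2.17 ± 0.19), and PFKFB3, the member called higher, at 18.3, 21.4 and 33.7 CPM (0.84 ± 0.20). VEGFA, the angiogenic growth factor, stood at 43.6, 46.2 and 101 CPM in DMSO and at 31.7, 28.9 and 35.1 CPM with the combination, and was called lower here (-1.001 ± 0.33, and -0.49, not called, without DMSO library 3). With quizartinib alone VEGFA was not called (-0.44 ± 0.33). Without the libraries numbered 3, 24 members were called lower than DMSO and 6 higher (33.0% and 31.8% of all genes). These comparisons share the DMSO libraries, so what dexamethasone added is read from the combination against quizartinib.

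Adding dexamethasone to quizartinib for 48 h raised 3 members and lowered 0 (5.62% and 4.63% of all genes), with a median of 0.02. LDHB stood at 222, 221 and 251 CPM with quizartinib and at 308, 303 and 256 CPM with the combination (0.32 ± 0.09, adjusted p from edgeR's model = 0.0285), and PFKP at 54.1, 53.2 and 55.5 CPM against 76.0, 70.5 and 64.8 CPM (0.38 ± 0.11, adjusted p from edgeR's model = 0.0335). Their groups did not overlap. PFKM (chr12:48105139-48146404, plus strand), the muscle form of phosphofructokinase, stood at 0.873, 0.921 and 0.818 CPM against 1.57, 1.37 and 1.79 CPM (0.85 ± 0.24, adjusted p from edgeR's model = 0.03). Leaving out 1 of the 6 libraries left 0 to 2 members called, 0 without quizartinib library 1 or 2 or combination library 1, so these calls are close to the threshold. With the replicate number as a block, HK2 (-0.41 ± 0.12) and PKM (-0.55 ± 0.16) were also called, as lower, beside the same 3 higher calls (6.10% of all genes lower, 6.73% higher). Without the libraries numbered 3, LDHB (0.47 ± 0.08), PFKP (0.46 ± 0.09) and EGLN1 (0.33 ± 0.08) were called higher (6.18% of all genes), and PKM (-0.46 ± 0.09), HK2 (-0.31 ± 0.09) and VEGFA (-0.48 ± 0.12) lower (5.14%).

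The interaction at 48 h, which asks whether dexamethasone acted differently once quizartinib was present, was called higher for 1 member, PFKM, and lower for 0, where 1.49% of all genes were called higher and 0.749% lower. PFKM stood at 1.42, 1.68 and 1.44 CPM in DMSO, at 1.27, 0.990 and 0.857 CPM in dexamethasone and, as given above, higher with the combination than with quizartinib (1.39 ± 0.33, adjusted p from edgeR's model = 0.0374). It is a low gene, with 17 to 37 counts in a library, and its exons overlap those of SENP1 on the other strand. That call was lost in 11 of the 12 fits without 1 library of the 48 h groups. HK2 stood at 146, 131 and 211 CPM in dexamethasone and at 44.8, 40.6 and 50.6 CPM with the combination, and its interaction was -0.65 ± 0.28 with all libraries, not called, -0.64 ± 0.16, called beside PFKM, with the replicate number as a block (2.21% of all genes higher, 1.27% lower), and -0.62 ± 0.12, the only member called, without the libraries numbered 3 (1.42% of all genes higher, 0.906% lower).

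At 5 days of quizartinib, 25 members were called lower and 1 higher against the 48 h DMSO libraries (32.1% and 30.7% of all genes), with a median of -1.45; treatment and time cannot be told apart in this comparison. LDHA stood at 133, 139 and 150.2 CPM (-2.60 ± 0.24), SLC16A1 at 21.6, 20.3 and 22.5 CPM (-1.86 ± 0.14) and PGK1 at 201, 198 and 205 CPM (-1.47 ± 0.22), while PFKFB3, the higher call, stood at 19.4, 18.0 and 19.3 CPM (0.47 ± 0.20). That call was lost without any 1 of the 3 libraries at 5 days and without DMSO library 1 or 2. Without the 48 h libraries numbered 3, 24 members were called lower and 5 higher (34.7% and 33.2% of all genes), the higher ones being PFKFB3, NDRG1, BNIP3L, KDM3A and EGLN1. The 17 glycolytic enzymes and lactate dehydrogenases took 0.373% to 0.390% of the counts.

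Between 48 h and 5 days of quizartinib, 2 members were called lower and 0 higher (2.28% and 0.889% of all genes). GAPDH stood at 1738, 1714 and 1967 CPM at 48 h and at 1218, 1078 and 1119 CPM at 5 days (-0.67 ± 0.13, adjusted p from edgeR's model = 0.00871), and LDHB at 222, 221 and 251 CPM against 164, 157 and 155 CPM (-0.55 ± 0.09, adjusted p from edgeR's model = 0.00288). The groups did not overlap, and the call of GAPDH was lost without 5 day library 2 (-0.64). Without the 48 h libraries numbered 3, 0 were called higher and 3 lower (2.69% and 3.89% of all genes). SLC2A1 stood at 33.9, 30.5 and 34.5 CPM at 5 days, below each 48 h library, and was called only without the 48 h libraries numbered 3 (-0.67 ± 0.18, adjusted p from edgeR's model = 0.0607, and -0.43 ± 0.10, adjusted p from edgeR's model = 0.0148).

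Late dexamethasone, added on day 3 of 5, raised LDHB alone with all libraries in the fit (4.60% of all genes higher, 4.04% lower): 164, 157 and 155 CPM with quizartinib and 199, 184 and 221 CPM with both drugs (0.34 ± 0.09, adjusted p from edgeR's model = 0.0226). That call was lost without any of the 3 quizartinib libraries and without combination library 3. The 6 libraries of this comparison are the same when the 48 h libraries numbered 3 are left out, and the log2 changes stayed close (BNIP3L 0.66 in both fits), but the shared estimate of the spread fell and 4 members were called higher and 4 lower (8.65% and 8.35% of all genes). BNIP3L stood at 85.9, 91.1 and 92.0 CPM with quizartinib and at 134.5, 155 and 135 CPM with both drugs (0.66 ± 0.10, adjusted p from edgeR's model = 0.000269), EGLN1 at 41.1, 44.6 and 44.4 CPM against 53.4, 57.1 and 55.4 CPM (0.36 ± 0.07), and PKM at 223, 201 and 189.99 CPM against 146, 134 and 140 CPM (-0.54 ± 0.07). The groups of these 3 genes did not overlap. LDHB and PFKFB3 were the other higher calls, and HK2, VEGFA and PGAM1 the other lower ones.

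**Figure D4:**
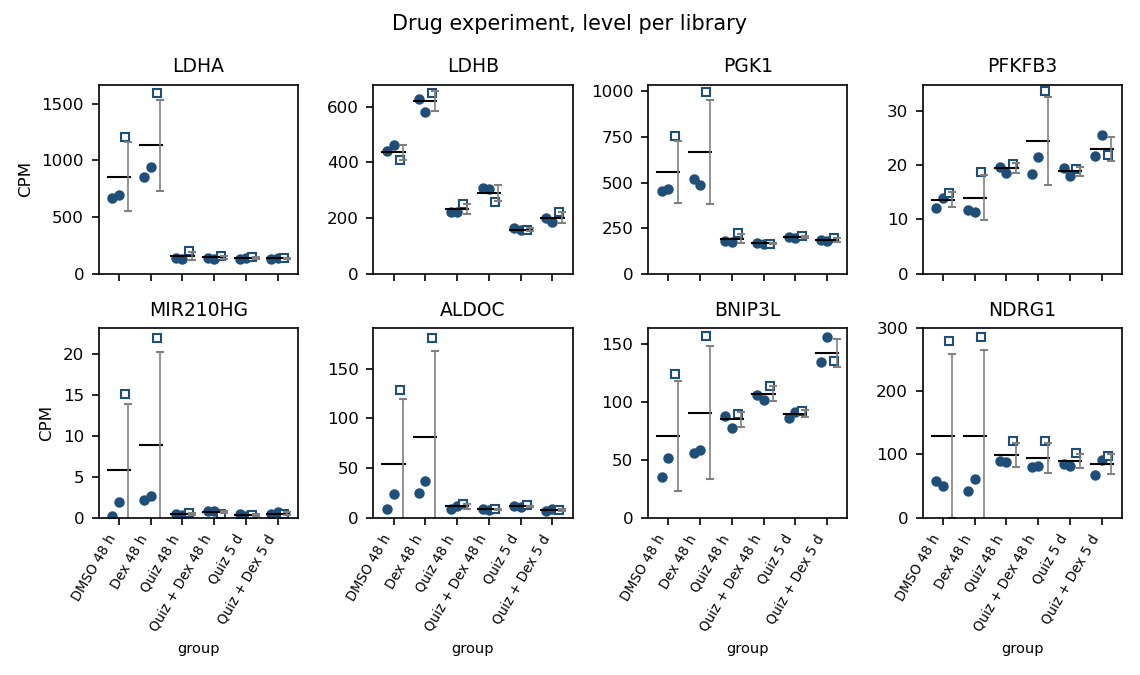
CPM of 8 members in each library of the 6 drug groups; filled circles are replicates 1 and 2, open squares replicate 3, black bars group means and grey bars the SD of 3 libraries, drawn down to 0 where it would pass below. LDHA and PGK1 are low in all quizartinib libraries, the mean of LDHB is higher with dexamethasone than without at 48 h and 5 days, and the open squares of MIR210HG, ALDOC, BNIP3L and NDRG1 stand above the circles in DMSO and dexamethasone.

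Of the genes outside the set, PGD, which makes NADPH in the pentose phosphate pathway, stood at 207, 196 and 208 CPM in DMSO and at 476, 496 and 658 CPM in dexamethasone (1.41 ± 0.11), and at 242, 229.7 and 249 CPM with quizartinib against 424, 379.9 and 370.3 CPM with the combination (0.71 ± 0.11). Its interaction was called lower (-0.71 ± 0.16, adjusted p from edgeR's model = 0.0225). EPAS1, the HIF2 alpha subunit, stood at 2.01, 2.32 and 1.35 CPM in DMSO, 2.80, 3.08 and 1.85 CPM in dexamethasone, 2.00, 1.89 and 2.55 CPM with quizartinib and 10.1, 12.0 and 13.7 CPM with the combination (interaction 2.03 ± 0.33, adjusted p from edgeR's model = 0.00301). DDIT4, an inhibitor of mTORC1 that both glucocorticoids and hypoxia induce, stood at 9.00, 10.7 and 46.6 CPM in DMSO and at 64.3, 65.5 and 334 CPM in dexamethasone (2.81 ± 0.59), with library 3 highest in both.

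In the recovery experiment, survivors of 48 h in 100 nM quizartinib had 6 members called lower and 3 higher than untreated cells by limma on log2(FPKM + 1), of 36 that passed the filter of 1 FPKM in 2 libraries. ADM and EGLN3 did not pass it, and AK4 and ANKRD37 passed only through their 30 day libraries. Of 18098 genes, 6.39% were called lower and 8.14% higher, and the median over all genes was 0.18, beside -0.22 over the members. LDHA stood at 572 and 586 FPKM untreated and at 149 and 153 FPKM in survivors (-1.93 ± 0.38), SLC16A1 at 25.04 and 24.1 against 5.03 and 5.82 FPKM (-1.99 ± 0.36), and PGAM1 at 171 and 199 against 66.3 and 66.6 FPKM (-1.46 ± 0.27). These were 2.75-fold to 3.98-fold lower, with no overlap. TPI1 stood at 687 and 769 against 348 and 264 FPKM (-1.26 ± 0.32), PFKP at 107 and 97.4 against 50.6 and 50.7 FPKM (-0.99 ± 0.18) and PGK1 at 595 and 578 against 306 and 334 FPKM (-0.87 ± 0.21), and these groups did not overlap either. For genes already called, with 2 libraries a group, lack of overlap is a description and gives no further support.

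PFKFB3 stood at 2.53 and 2.24 FPKM untreated and at 9.73 and 9.39 FPKM in survivors (1.64 ± 0.39), BNIP3L at 29.9 and 26.4 against 94.9 and 77.6 FPKM (1.58 ± 0.37), and NDRG1 at 50.5 and 26.2 against 123 and 85.1 FPKM (1.47 ± 0.33). These 3 were called higher, with adjusted p from limma's model of 0.0395 to 0.0419. The higher calls depend on scaling: with log2 values centred on the library median 1 was called higher and 6 lower, and with TMM factors on FPKM 0 higher and 7 lower. With 2 libraries a group, leaving out any of the 4 libraries of this comparison left 0 members called, as did dropping the filter on low FPKM, although each log2 change of a called member kept its sign.

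The experiments differ in dose (10 and 100 nM), in the control (DMSO or untreated cells) and in taking survivors. Their scales differ too: counts in one and log2(FPKM + 1), which understates changes of low genes, in the other. Their values therefore stand side by side without a test. LDHA changed by -2.44 at 48 h in the drug experiment and by -1.93 in survivors, SLC16A1 by -1.55 and -1.99, PGAM1 by -1.76 and -1.46, GAPDH by -0.79 and -0.23 (not called), and PFKFB3 by 0.51 and 1.64. Of 36 members in both fits, 27 had the same sign (75%), where 80.8% of 13550 genes did, so sharing a sign is no property of the set. Called lower in both were 6 of the 36 members and 990 of the 13550 genes (7.31%), and called higher in both 1 member, PFKFB3, and 1047 genes (7.73%).

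After 13 days off drug, the 2 libraries differed. LDHA stood at 352 and 146 FPKM, PGAM1 at 198 and 113 FPKM, ENO1 at 848 and 458 FPKM and LDHB at 785 and 379 FPKM. Library 1 lay nearer to untreated cells than to survivors for 26 of 36 members (72.2%, and 61.1% of all 18098 genes), and library 2 nearer to survivors for 24 of 36 (66.7%, and 58.4% of all genes). PFKFB3 stood at 13.6 and 29.6 FPKM, above all untreated and 48 h survivor libraries. In the same libraries the FPKM of all entries summed to 2439141 and 3714051, against 2240874 to 2547791 in the other groups, MYC stood at 118 and 44.2 FPKM, and the 14 myeloid markers summed to between 5728 and 8242 FPKM, against 1622 to 2403 FPKM in the other groups. The 5 T and NK cell markers summed to between 64.6 and 115.7 FPKM, nearly all of it NKG7, against 23.3 to 42.5 FPKM in the other groups. The part of these differences in the members' values was not tested.

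By limma 0 members were called between 13 days and untreated cells (0.133% of all genes higher, 0.249% lower) and 0 between 13 days and survivors (0.177% higher, 0.669% lower). LDHA changed by -1.35 ± 0.38 from untreated cells and by 0.58 ± 0.38 from survivors, and PGAM1 by 1.16 ± 0.27 from survivors. Which library is kept decides the outcome. Without library 1, 9 members were called lower and 2 higher than untreated cells (8.73% and 3.82% of all genes), among them LDHA (-1.98 ± 0.14), LDHB (-1.71 ± 0.14), GAPDH (-1.15 ± 0.19) and PFKFB3 (3.18 ± 0.29). Without library 2, 8 were called higher and 1 lower than survivors (6.50% and 8.73% of all genes), among them PGAM1 (1.56 ± 0.15), LDHA (1.21 ± 0.14), ENO1 (1.02 ± 0.12) and BNIP3L (-1.18 ± 0.19). In such fits the lone library is assumed to vary like those of the other groups.

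After 30 days off drug, 11 of the 17 glycolytic enzymes and lactate dehydrogenases in library 1, and 13 of 17 in library 2, stood above both untreated libraries, as did 32.9% and 35.2% of all genes. Against untreated cells 2 members were called higher and 0 lower (0.0774% and 0.0497% of all genes, 23 genes in all). MIR210HG stood at 0.631 and 0.903 FPKM untreated, 2.62 and 0.680 in survivors, 0.562 and 1.75 FPKM at 13 days and 41.1 and 44.9 FPKM at 30 days (4.64 ± 0.45 against untreated, adjusted p from limma's model = 0.028). ALDOC stood at 4.83 and 7.56, 3.43 and 3.19, 6.84 and 8.64, and 66.0 and 58.3 FPKM in the same order (3.16 ± 0.26, adjusted p from limma's model = 0.0138). In both genes the 2 libraries at 30 days were above all 6 others. The calls were lost when any 1 of the 4 libraries compared was left out, with log2 changes that stayed between 2.88 and 4.75.

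From 13 to 30 days, 5 members were called higher and 0 lower (0.326% and 0.0774% of all genes): MIR210HG (4.41 ± 0.45), ALDOC (2.86 ± 0.26), AK4 (2.17 ± 0.27), P4HA1 (1.87 ± 0.20) and PFKFB4 (1.64 ± 0.21). AK4 stood at 0.298 and 0.649 FPKM untreated, 0.061 and 0.087 FPKM at 13 days and 4.52 and 3.23 FPKM at 30 days; since it passed the filter through the 30 day libraries alone, its call is a description and gives no support. P4HA1 stood at 13.1 and 15.1, 12.3 and 10.4, and 39.8 and 48.6 FPKM, and PFKFB4 at 5.40 and 6.70, 4.83 and 5.66, and 18.5 and 18.4 FPKM. Their libraries at 30 days lie above all others. Without 13 day library 1, 17 were called higher, LDHA among them, and 1 (PFKFB3) lower (7.22% and 2.53% of all genes). Without 13 day library 2, 1 was called higher and 0 lower (0.226% and 0.0452%), and without either 30 day library 0 were called.

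Other members stood high at 30 days without a call against untreated cells: SLC2A3 at 10.4 and 19.98 FPKM against 3.12 and 4.92 untreated (1.65 ± 0.40), VEGFA at 46.8 and 75.4 against 19.8 and 20.7 FPKM (1.51 ± 0.32), ENO2 at 9.70 and 16.6 against 1.44 and 1.12 FPKM (2.60 ± 0.32), and BNIP3 at 20.1 and 10.5 against 3.66 and 2.00 FPKM (2.06 ± 0.48). None of these groups overlapped, but the genes were picked as high. Of all genes, 32.9% in library 1 and 35.2% in library 2 at 30 days stood above both untreated libraries. HIF1A stood at 60.3 and 39.6 FPKM against 69.1 and 33.4 FPKM. Outside the set, GBE1 was called higher from 13 to 30 days (9.31 and 6.77 against 69.2 and 54.2 FPKM, 2.80 ± 0.24), as 1 of 28 other oxygen and hypoxia genes tested, while 0 of 20 other glycolysis and pyruvate genes and 0 of 7 pentose phosphate genes were called.

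FPKM are scaled by length, so the forms of an enzyme can be set against each other within a library. LDHA made up 32.2% and 31.3% of the summed LDHA and LDHB FPKM in untreated cells, 18.2% and 19.9% in survivors, 31.0% and 27.8% at 13 days and 39.1% and 45.0% at 30 days. PFKFB3 made up 32.0% and 25.1% of PFKFB3 and PFKFB4, then 58.4% and 57.4%, 73.8% and 83.9%, and 19.7% and 27.2%. Shares here count members only, so PFKFB2 and HK3 are left out. PFKFB2 stood at 1.80 and 1.51 FPKM untreated and at 11.3 and 8.31 FPKM in survivors, beside 9.73 and 9.39 FPKM for PFKFB3 in survivors. At 13 days it stood at 3.94 and 4.67 FPKM. SLC16A1 made up 31.9% and 39.4% of the lactate carriers SLC16A1 and SLC16A3, then 8.02% and 14.7%, 15.3% and 10.6%, and 22.4% and 23.9%. HK2 made up 51.2% and 41.7% of HK1 and HK2 in untreated cells, 29.6% and 30.0% in survivors, 62.2% and 48.0% at 13 days and 57.2% and 46.6% at 30 days. These shares are descriptions of 2 libraries a group and have no test.

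**Figure D5:**
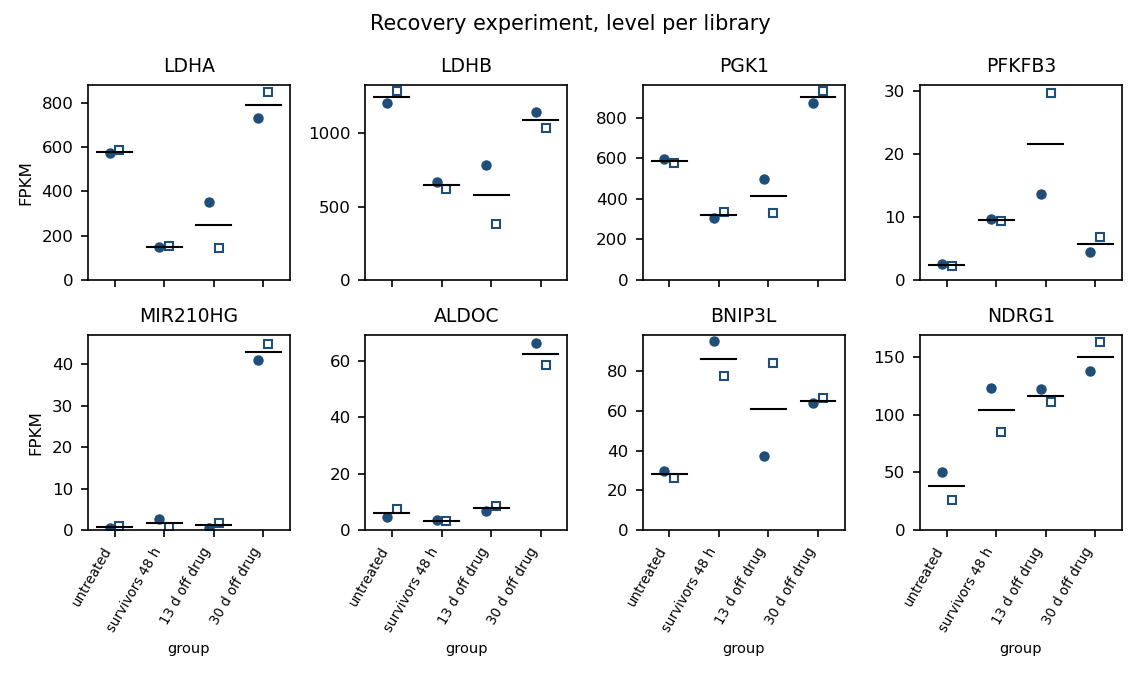
FPKM of 8 members in each library of the recovery experiment (untreated, survivors of 48 h in quizartinib, and 13 and 30 days off drug); filled circles are replicate 1, open squares replicate 2 and bars the mean of 2. LDHA, LDHB and PGK1 are low in survivors and high again at 30 days, the 13 day libraries lie apart, and MIR210HG and ALDOC are highest at 30 days.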

How the data were processed

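The deposited tables of the drug experiment (18 libraries) hold whole-number counts per gene, not normalised. The tools named in the submitters' processing notes are STAR 2.7.3 and RSEM, besides CASAVA, DESeq2 and edgeR, with GRCh38; the counting of strands is not given in the sources used here. The deposited tables of the recovery experiment (8 libraries) hold FPKM. For these the notes name TopHat2 2.0.9, Cuffdiff and CASAVA, with hg38, and no scaling between libraries.

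Counts were scaled by TMM and fitted with edgeR 4.0.16's quasi-likelihood model over all 16430 genes and 18 libraries. FPKM were fitted with limma 3.58.1 on log2(FPKM + 1) over 8 libraries and the 18098 genes that reached 1 FPKM in 2 or more libraries, so fold changes of low genes are understated. Calls needed an adjusted p (Benjamini-Hochberg over all genes tested) under 0.05; errors of log2 changes are standard errors. The labels give replicate numbers without saying what they share. For DMSO against dexamethasone, DMSO against quizartinib and quizartinib against the combination at 48 h, every same-numbered pair's deviations from the group means correlated over 0.1 (lowest 0.1002), so the numbers were taken to pair these libraries, from the data alone. With 3 libraries against 3 an exact permutation test cannot go below p = 0.1. Lack of overlap between groups was stated for genes picked by their calls or values, and its share over all genes was not counted. On simulated counts and FPKM both models were tested with known changes. Positions are from GENCODE 29 on GRCh38. The members, the other gene lists and the alternatives were chosen with earlier results of these data known. Values in every library were given for called members ordered by role, led by the largest absolute log2 change (up to 14 for quizartinib at 48 h, up to 8 elsewhere), and up to 6 called genes of each other list were named; further members were given values where 1 library or a role's contrast turned on them, chosen after their values were seen. STC2, at 0 counts in the quizartinib libraries at 48 h, was left out. R 4.3.3, Python 3.11.15, pandas 2.3.3 and matplotlib 3.10.9 were used, with DESeq2 1.42.0 as an alternative.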

Additional observations from a re-analysis of the deposited data

Results flagged for a closer look

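The change of PFKM with dexamethasone differed between cells with and without quizartinib, by 1.39 on the log2 scale in edgeR's interaction term. The gene holds 17 to 37 counts a library, and the difference lost its call with DESeq2 and in 11 of the 12 fits without 1 library of the 48 h groups. Groups of 3 or 2 libraries are too small for a test of single outlying libraries.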

How the results depend on the processing

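DESeq2 size factors, both filters on low counts and the removal of 7SK and 7SL RNAs left every count of called members within 1.5 times of that reported, and no called change reversed under any alternative. Without the 48 h libraries numbered 3, the called members went to 11 for dexamethasone alone, to 6 for dexamethasone added at 48 h and to 8 for its later addition. With only the compared groups in the fit, they were 1 for dexamethasone alone, 0 for the interaction, 8 for the combination at 5 days, 1 for 30 days against untreated cells and 2 for 30 against 13 days. DESeq2 called 0 for the interaction and 2 for the combination at 5 days. Of the FPKM settings, no filter left 0 for survivors, 1 for 30 days against untreated and 2 for 30 against 13 days, a pseudocount of 0.1 left 1 and 3 for those 2 comparisons at 30 days, and median-centred values left 3 for 30 against 13 days. The cause was not tested.

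In the other comparisons at least 1 same-numbered pair correlated at 0.1 or less, as did all 12 recovery pairs, so those libraries were not taken as pairs. That cutoff does not show that they share nothing: DMSO and the combination at 48 h correlated at 0.0444 to 0.1837. Of the drug libraries, 16 of 18 correlated best with their own number, a hint from the data and not the design. So did 8 of 8 recovery libraries. With 2 libraries a group, however, their deviations mirror each other. Both numbers then give the same correlation, so these recovery counts are not separate outcomes. With the replicate number as a block, the called members were 4 for dexamethasone alone, 5 for the combination against quizartinib at 48 h, 2 for the interaction, 2 for the combination at 5 days, 1 for 30 days against untreated cells and 2 for 30 against 13 days; in the 3 paired comparisons and the interaction it changed no member's call other than those given above.

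Leaving out 1 library gave 1 to 13 called members for dexamethasone alone, 0 to 2 for the combination against quizartinib at 48 h, 0 to 1 for the interaction, 1 to 3 for 5 days against 48 h of quizartinib, 0 to 1 for the combination at 5 days, 0 for survivors and for 30 days against untreated cells, 0 to 11 for 13 days against untreated, 0 to 9 for 13 days against survivors and 0 to 18 for 30 against 13 days. Changes that were not called and turned sign in such fits ranged, for quizartinib at 48 h, from -0.046 to 0.98 for BNIP3L, from -0.30 to 0.24 for EGLN1, from -0.76 to 0.89 for NDRG1, from -0.30 to 0.50 for PDK1, from -1.53 to 0.51 for PFKFB4 and from -0.65 to 0.066 for VEGFA. For MIR210HG with dexamethasone they ranged from -1.29 to 3.02, and for LDHA between 13 days and survivors from -0.047 to 1.21. Without all libraries numbered 3, EGLN1 was 0.10, NDRG1 0.71 and PFKFB4 0.57. The depth of the FPKM libraries is unknown, and groups of 2 or 3 libraries limit every call.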
